A study of Mus musculus with 71 samples.

Results

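Keratins and claudins were followed across 71 oligonucleotide arrays of mouse brain messenger RNA. The set was every gene whose annotated symbol is Krt or Cldn followed by digits alone, apart from Cldn2, Cldn10 and Cldn11, and each gene was read from its probe set of highest mean log2 value. This gave 61 genes of 18193, made up of 23 type I keratins, 21 type II keratins and 17 claudins. All values are log2 of an intensity relative to the median of its array, so 0 is the array median and 1 is a doubling. The median is a reference level and not a detection limit, and brightness cannot be compared between probe sets of different genes.

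Keratins are the intermediate filament proteins of epithelia, built as pairs of a type I and a type II chain, and most lie in a type I and a type II gene cluster. Claudins span the membrane at tight junctions and set what passes between neighbouring cells. In brain, Cldn5 belongs to the vessel wall, and the claudins left out by the rule mark choroid plexus, astrocytes and oligodendrocytes. Both families are known mainly from epithelia and not from neurons. Some members were still above the array median in polyribosome RNA of control mice, such as Cldn12 (mean 7.94) and Krt10 (6.46). A rise in mutants thus need not start from a silent gene.

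The study removed GLP (encoded by Ehmt1) or G9a (encoded by Ehmt2), partner enzymes that methylate a lysine of histone H3 at silent genes. In whole tissue, the mutants were Camk2a-Cre mice with floxed GLP or floxed G9a, and the controls were littermates with the same floxed gene. The Camk2a promoter drives Cre in forebrain neurons, so glia, vessels, meninges and choroid plexus in the tissue keep the gene. These 59 arrays cover hippocampus, hypothalamus, striatum and cortex in 16 groups. A group holds 4 arrays, but the G9a hippocampus controls hold 3 and both G9a cortex groups hold 2. The other 12 arrays hold polyribosome RNA of medium spiny neurons (MSN), in 4 groups of 3 pools of 5 mice. There the mutants were Drd1-Cre; Drd1-bacTRAP or Drd2-Cre; Drd2-bacTRAP mice with floxed G9a, and the controls lacked Cre. Mice were 10 to 14 weeks old, and controls were matched for age and sex.

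The deleted genes were read first. Ehmt1 changed by -0.58 in the GLP hippocampus, -0.46 in the striatum and -0.76 in the cortex, all called, and by -0.16 in the hypothalamus, which was not called (adjusted p = 0.711). Ehmt2 changed by -1.17, -1.02, -1.28 and -1.76 in the G9a hippocampus, hypothalamus, striatum and cortex, all called. The striatal Ehmt1 call and the hypothalamic Ehmt2 call (adjusted p = 0.211) were lost with the compared groups fitted alone. The Ehmt1 call in the GLP striatum was also lost without any 1 of 4 of its 8 arrays (adjusted p up to 0.102). Ehmt2 differed by -2.04 in Drd1-MSN (adjusted p = 0.943) and by -0.08 in Drd2-MSN (-0.53 to 0.35 with 1 array left out), where the mutant label was thus not borne out. A gene is "called" at a Benjamini-Hochberg adjusted p under 0.05 in limma, over all genes tested in that comparison. To be tested, a gene had to exceed the array median on a number of compared arrays no lower than the size of the smaller group.

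Most keratins and claudins were dim throughout. Of the 61 genes, 33 (54.1%) were never above the array median on any array, against 21.8% of all genes. They were 15 type I keratins, 10 type II keratins and 8 claudins, among them Krt14, Krt15 and Krt19, Krt7, and the epithelial claudins Cldn4 and Cldn6. Another 5 genes (8.2%, against 50.3% of all genes) were above it on every array, and the remaining 23 on some. The number above the median on every array of a group ran from 6 in both GLP hypothalamus groups to 18 in the GLP hippocampus mutants, whose controls had 14. Over the 20 groups, 23 genes were above it on every array of at least 1 group, and for 20 of them that held in a control group.

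**Figure D1:**
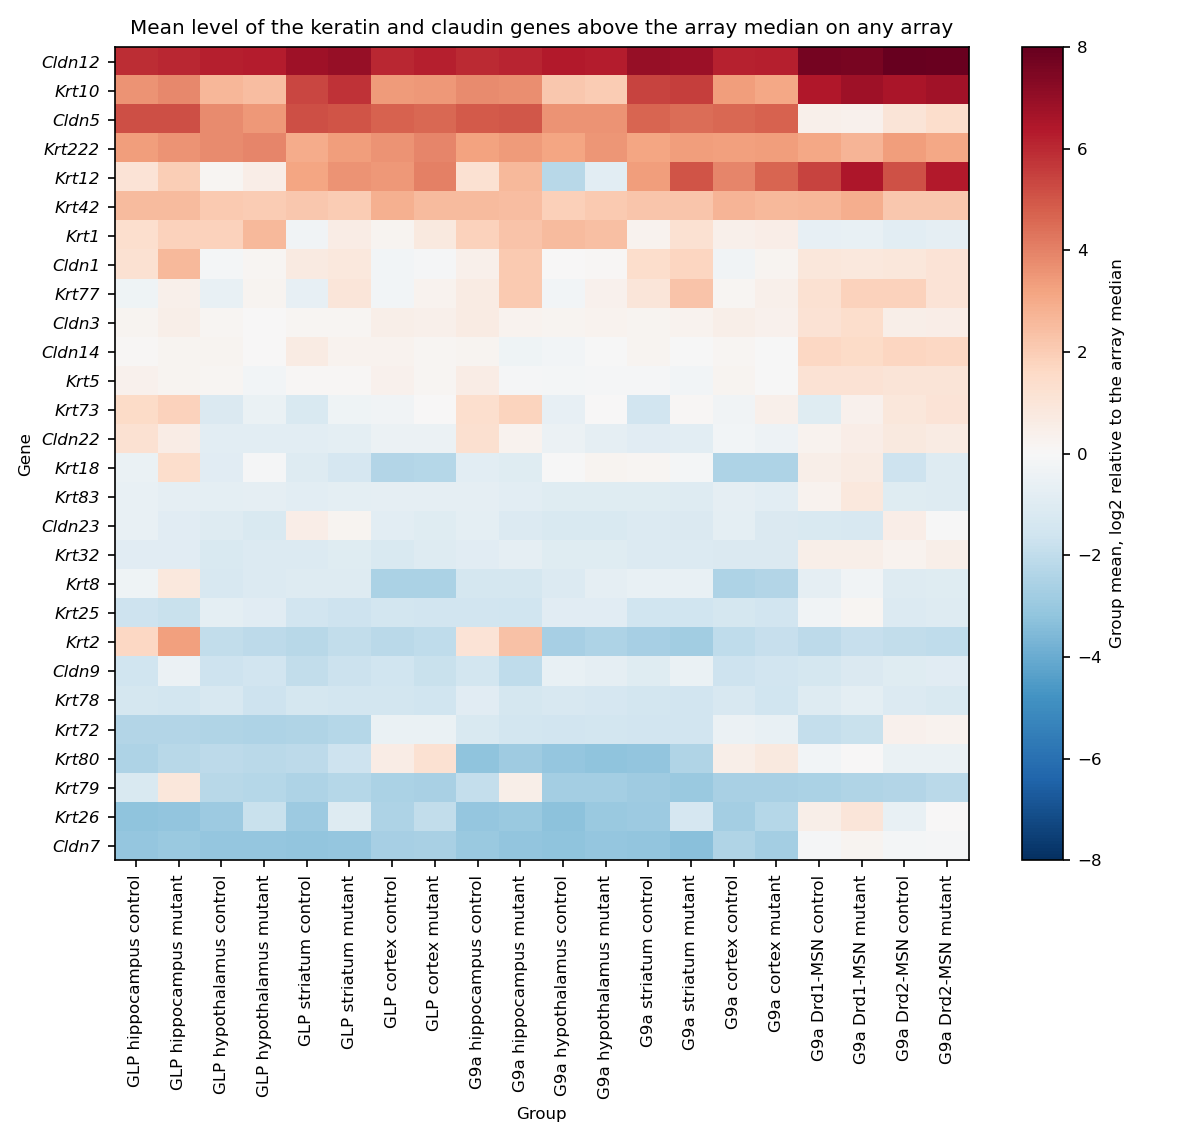
Group means on the log2 scale, colour from blue (below the array median) to red (above it), for the 28 keratin and claudin genes above the array median on at least 1 array; columns are the 20 groups. Cldn12, Krt10, Cldn5, Krt222 and Krt42 were above the median on every array, Krt2 was red in the hippocampus groups, and the other 33 genes of the set are not drawn.

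The genes above the median on every array were Cldn12, Cldn5, Krt10, Krt222 and Krt42. Cldn12, a claudin found in many cell types, averaged 6.32 over the tissue control groups and 7.94 over the polyribosome controls. Krt10, the type I keratin of the upper epidermis, averaged 3.73 and 6.46 there. Cldn5, the main claudin of the brain endothelium, averaged 4.56 in tissue and 0.70 in the polyribosome controls. Krt222, a keratin-like type I gene, averaged 3.31 and 3.21, and Krt42 averaged 2.35 and 2.39. Krt12, known as the type I keratin of the cornea, joined them in the polyribosome controls at 5.27, against 1.64 in tissue controls. The polyribosome arrays are another RNA preparation in a fit of their own, so tissue and polyribosome levels were not tested against each other. Nor can levels there be taken as neuronal alone. The mean of 8 oligodendrocyte markers was 6.43 to 7.08 in Drd1-MSN controls and 6.94 to 7.62 in Drd2-MSN controls. In the G9a striatum tissue controls it was 7.06 to 7.61.

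Some of these genes differed strongly between brain regions in control mice, where each region was set against the mean of the other 3 regions in both lines together. In the hippocampus 8 of 16 tested members were called, where 62.4% of all tested genes were called. Krt2, a type II epidermal keratin, lay between 0.54 and 1.93 in 7 hippocampus controls and between -2.80 and -1.62 in the hypothalamus. In the striatum its range was -2.74 to -2.04 and in the cortex -2.18 to -2.03, so the hippocampus arrays stood apart from all other controls. The Krt2 difference was 3.65 (SE 0.10, adjusted p = 3.17e-33). Krt73, a type II keratin of the hair root sheath, was higher by 2.32 (SE 0.16) and Cldn22 by 1.86 (SE 0.10), while Cldn12 was lower, at -0.47.

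Members were called in the other regions too, as were most of all tested genes. In the hypothalamus 9 of 13 tested members were called, against 76% of all tested genes. Krt12 ranged there from -3.18 to 1.20 in 8 controls, lower than elsewhere by a log2 difference of -3.72 (SE 0.39). Krt10 differed there by -1.73 and Cldn5 by -1.18. Krt1, the type II partner of Krt10 in the upper epidermis, was higher there, at 1.29 to 2.81 on the 8 arrays and a difference of 1.55 (SE 0.13). In the striatum 10 of 13 tested members were called, against 64.3% of all tested genes. Krt10 lay there at 5.16 to 5.51, above all hypothalamus, hippocampus and cortex controls, with a difference of 2.21 (SE 0.09). Krt12 was higher there by 1.97 and Cldn1, an epidermal claudin also present in choroid plexus, by 0.92. Krt73 (-1.48), Krt1 (-1.35) and Krt222 (-0.35) were lower. In the cortex 9 of 17 tested members were called, against 67.8% of all tested genes. Krt80, a type II keratin of many epithelia, lay there at 0.28 to 0.82 on 6 controls and at or below -1.03 in every other tissue control. The Krt80 difference was 3.22 (SE 0.22), Krt12 was higher by 2.56 and Krt42 by 0.51, while Krt18 (-1.91), Krt2 (-0.97) and Krt1 (-0.94) were lower. With values below the median set to it, the Krt18 call in the cortex was lost (adjusted p = 0.321). For Krt18 and Krt2, both cortex levels lay below the array median, where arrays also differ in their low end: the 1st percentile lay between -3.45 and -3.33 on cortex arrays and between -4.03 and -3.52 on the other tissue arrays.

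Between the polyribosome controls, 3 of 17 tested members were called, where 15.4% of all tested genes were. Krt72, a hair root sheath keratin, read -1.97, -1.89 and -1.87 in the Drd1-MSN pools and 0.27, 0.34 and 0.37 in the Drd2-MSN pools, a difference of -2.24 (SE 0.14, adjusted p = 1.17e-06). Krt18, a type I keratin of simple epithelia, went the other way, at 0.31 to 0.72 in Drd1-MSN and -1.81 to -1.33 in Drd2-MSN, a difference of 2.10 (SE 0.31). Krt73 differed by -1.87 (SE 0.41). With values below the median set to it, none of these 3 calls held: adjusted p was 0.0666, 0.267 and 0.0617. The choroid plexus gene Cldn2, itself outside the set, was also higher in the Drd1-MSN control pools, by 2.61 (SE 0.42). The oligodendrocyte claudin Cldn11, also outside it, was lower there (-1.30, SE 0.34, adjusted p = 0.0234). The part of other cell types in these differences was not tested.

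Of the 61 genes, 8 were called in at least 1 mutant comparison. Over 10 such comparisons there were 15 calls, 13 up and 2 down, among 136 tested pairs of a gene and a comparison. Of all tested genes, 0.0165% to 3.02% were called per comparison. The Drd2-MSN comparison is counted here although its mutant label was not borne out. The 15 calls fell on the keratins Krt1, Krt2, Krt8, Krt18, Krt77 and Krt79 and the claudins Cldn1 and Cldn22. All 15 calls came from hippocampus or striatum, and 37 genes were too dim to be tested in any mutant comparison. Whether a mutant effect differed between regions was not tested. A gene dim in controls was tested only where mutants lifted it above the median, so counts among tested genes lean towards rises.

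**Figure D2:**
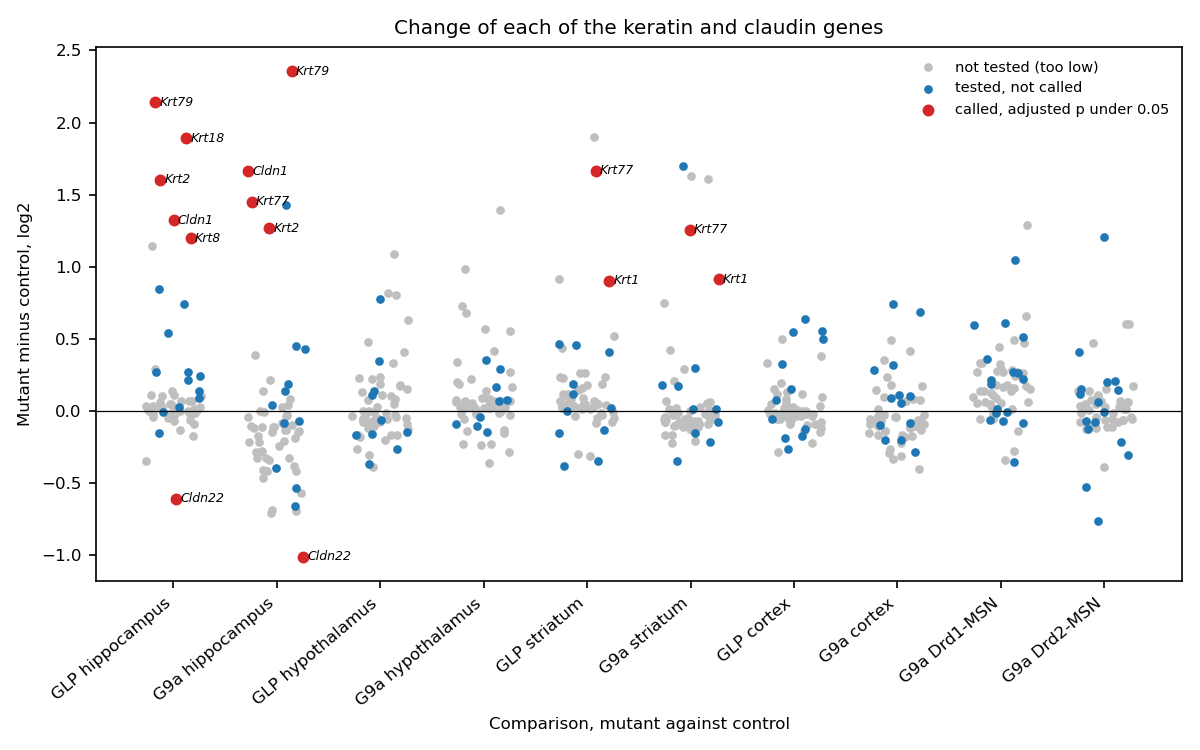
Difference of group means, mutant minus control, on the log2 scale, for all 61 genes in each of 10 comparisons; red points passed the test, blue points were tested and did not pass, grey points were too low to be tested, and sideways position within a column has no meaning. The 15 red points lie in the hippocampus and striatum columns, from -1.01 for Cldn22 to 2.36 for Krt79.

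In the GLP hippocampus, 18 of the 61 genes were tested and 6 were called, 5 up and 1 down, where 2.05% of all tested genes were called (1.73% up and 0.317% down). The rising genes were the type II keratins Krt2, Krt79 and Krt8, the type I keratin Krt18 and Cldn1. Every mutant array lay above every control array for 7 of the 61 genes, against 3.3% of all genes. Krt77 and Krt79 were above the array median on every mutant and no control array, as were 0.192% of all genes. The median difference over the 61 genes was 0.03, against -0.01 for all genes, and 41 had the higher mean in mutants, against 44.4% of all genes.

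Krt79, a type II keratin of sebaceous and hair follicle ducts, read -0.96, -0.99, -1.82 and -1.12 in the GLP hippocampus controls and 0.68, 0.62, 1.18 and 1.18 in the mutants. The groups did not overlap, and all mutants and no controls were above the median. The difference was 2.14 (SE 0.22, adjusted p = 3.07e-10), at least 1.89-fold when the control is taken at the array median. Krt79 passed the filter only through these mutants. With no filter on low values it was also called (adjusted p = 4.09e-11 in limma). Krt2 rose from a level already above the median, at 1.93, 1.79, 1.55 and 1.36 in controls and 3.26, 3.53, 2.93 and 3.33 in mutants. This was a 3.04-fold rise (log2 1.60, SE 0.17, adjusted p = 6.78e-10). Neither call was lost when any 1 array was left out.

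Cldn1 also rose in the GLP hippocampus, from 1.60, 1.03, 0.93 and 1.42 in controls to 2.61, 2.85, 2.36 and 2.45 in mutants. The 2 groups were apart, and the rise was 2.50-fold (log2 1.32, SE 0.27, adjusted p = 0.00116). It rests on 1 of 4 Cldn1 probe sets, since the other 3 lay at -3.02 or lower in both hippocampus comparisons. Krt18 and Krt8, the partner chains of simple epithelia and neighbours at the end of the type II cluster, rose together. Krt18 read 0.46, -0.69, -0.97 and -0.85 in controls and 1.86, 1.66, 1.29 and 0.71 in mutants, a difference of 1.89 (SE 0.33, adjusted p = 8.83e-05). Krt8 read 0.08, -0.08, -1.10 and -0.23 in controls and 1.12, 0.93, 1.02 and 0.40 in mutants, a difference of 1.20 (SE 0.31, adjusted p = 0.0180). The Krt8 arrays did not overlap either, but its call was lost without any 1 of 4 arrays (mutant 1, 2 or 3 or control 3), with adjusted p up to 0.192. All 3 Krt8 probe sets were called there.

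Markers of the choroid plexus, the epithelium that makes cerebrospinal fluid, moved with this comparison. Of 19 listed markers 18 were measured and 16 tested, 12 were called up and none down, and the median difference of those tested was 2.51. The mean log2 level of the list lay between 0.15 and 1.98 in the GLP hippocampus controls and between 2.68 and 3.37 in the mutants. Its summed linear level was 332.5 to 1036 in controls and 1143 to 1328 in mutants, and Trpv4 and Foxj1 were below the median on every array. Cldn2, the choroid plexus claudin that the rule leaves out, rose by 3.85 (SE 0.70, adjusted p = 2.00e-04), while the oligodendrocyte claudin Cldn11 (0.10) and the astrocyte claudin Cldn10 (-0.02) were not called. Among the mutants, Krt18 and Krt8 were highest in mutant 1, where the list averaged 3.37. Cldn1 and Krt2 were highest in mutant 2 (list 3.34), and Krt79 in mutants 3 and 4 (list 3.19 and 2.68). Among the controls each of these genes was highest in control 1, where the list averaged 1.98. The part of choroid plexus RNA in the rises of Krt8, Krt18, Cldn1, Krt2 and Krt79 was not tested in this tissue. In bulk samples, a change in the share of a cell type and a change of RNA per cell cannot be told apart.

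**Figure D3:**
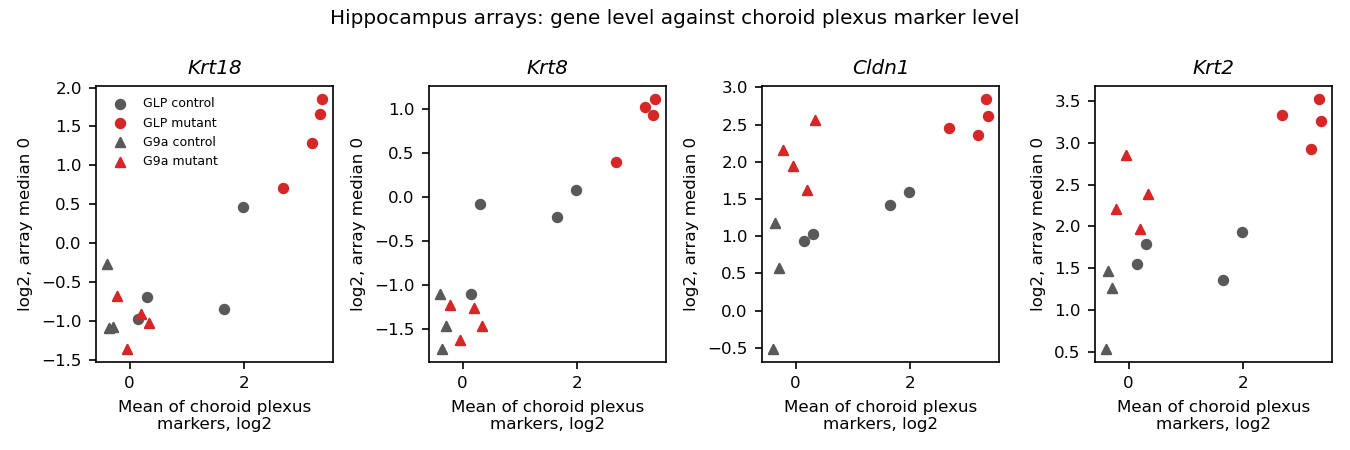
Level of Krt18, Krt8, Cldn1 and Krt2 on each of 15 hippocampus arrays (vertical axis, log2) against the mean log2 level of 18 choroid plexus and ependyma markers on the same array (horizontal axis); circles are GLP and triangles G9a arrays, red mutants and grey controls. The GLP mutants lie at marker levels of 2.68 to 3.37, the G9a arrays lie between -0.39 and 0.34, and among the G9a arrays Cldn1 and Krt2 are higher in mutants while Krt18 and Krt8 overlap.

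In the G9a hippocampus, 16 of the 61 genes were tested and 5 were called, 4 up and 1 down, where 2.72% of all tested genes were called (2.25% up and 0.469% down). Over the 61 genes the median difference was -0.13, against -0.02 for all genes, and 16 had the higher mean in mutants, against 45.7% of all genes. Of the 61, 45 were too dim to be tested, and the tested members had a median of 0.16, against 0.03 for all tested genes. With 3 controls, 1 array can weigh heavily. The mean of 25 genes of epithelial adhesion and regulation ran from -1.02 to -0.53 in controls and from -1.01 to -0.74 in mutants. Control 2 was the lowest control for Krt2, Cldn1 and Krt77, which are described below. Without any 1 array their differences were 0.99 to 1.46, 1.20 to 2.04 and 1.14 to 1.68, all still called. The part of single control arrays in the median difference over the 61 genes was not tested. Without control 2, Krt5 lost its call in control hippocampus against other regions (0.38 to 0.10, adjusted p = 0.352 in limma). The choroid plexus list was low in both groups here, with a mean of -0.39 to -0.29 in controls and -0.21 to 0.34 in mutants, so that every mutant array lay above every control array. Of 10 markers tested only Cldn2 was called, by 3.06 (SE 0.76, adjusted p = 0.0129), and Kcne2, Slc4a5, Otx2, Aqp1, F5, Trpv4 and Foxj1 were below the median on every array. Of the markers of meninges and fibroblasts, 4 of 10 tested were called up (Lum, Ptgds, Col1a2 and Fmod), with an overlapping list mean of 1.07 to 1.65 in controls and 1.56 to 3.11 in mutants. The part of either list in the results was not tested.

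Krt79 rose again, from -1.69, -2.25 and -1.76 in the G9a hippocampus controls to 0.32, 0.65, -0.05 and 0.90 in mutants. The difference was 2.36 (SE 0.23, adjusted p = 5.76e-11), at least 1.37-fold against the array median. Krt79 passed the filter only through its mutants. With mutant 1, 2 or 4 left out it fell under the filter and was not tested. Krt2 read 1.46, 0.54 and 1.26 in controls and 2.38, 2.86, 1.97 and 2.20 in mutants, with no overlap and a 2.41-fold rise (log2 1.27, SE 0.18, adjusted p = 8.55e-07). Cldn1 read 1.17, -0.52 and 0.57 in controls and 2.56, 1.94, 1.63 and 2.15 in mutants, a 3.16-fold rise (log2 1.66, SE 0.29, adjusted p = 1.02e-04). Krt18 and Krt8 lay below the median on every array of this comparison and were not tested, with differences of -0.19 and 0.04.

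Krt77, a type II keratin of the eccrine sweat duct and neighbour of Krt1, was called in the G9a hippocampus. It read 1.11, 0.02 and 0.81 in controls and 1.99, 2.27, 1.95 and 2.20 in mutants, a 2.74-fold rise (log2 1.45, SE 0.28, adjusted p = 4.30e-04). In the GLP hippocampus the same gene crossed the median, from -0.74 to -0.11 in controls to 0.19 to 0.57 in mutants, but its difference of 0.74 was not called. With the compared groups fitted alone it was (adjusted p = 0.0427). Cldn22, a claudin of little known role, was the only member called down. It read 1.08, 1.33 and 1.45 in the G9a controls and -0.21, 0.49, 0.48 and 0.34 in mutants, lying at 49.6% of control (log2 -1.01, SE 0.17, adjusted p = 3.79e-05). In the GLP hippocampus Cldn22 read 1.10, 1.04, 1.65 and 0.99 in controls and 0.30, 0.30, 1.16 and 0.57 in mutants. Those groups overlapped, and the call there (-0.61, SE 0.16, adjusted p = 0.0196) was lost without control 3, mutant 1 or mutant 2, and with the compared groups fitted alone (adjusted p = 0.235).

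**Figure D4:**
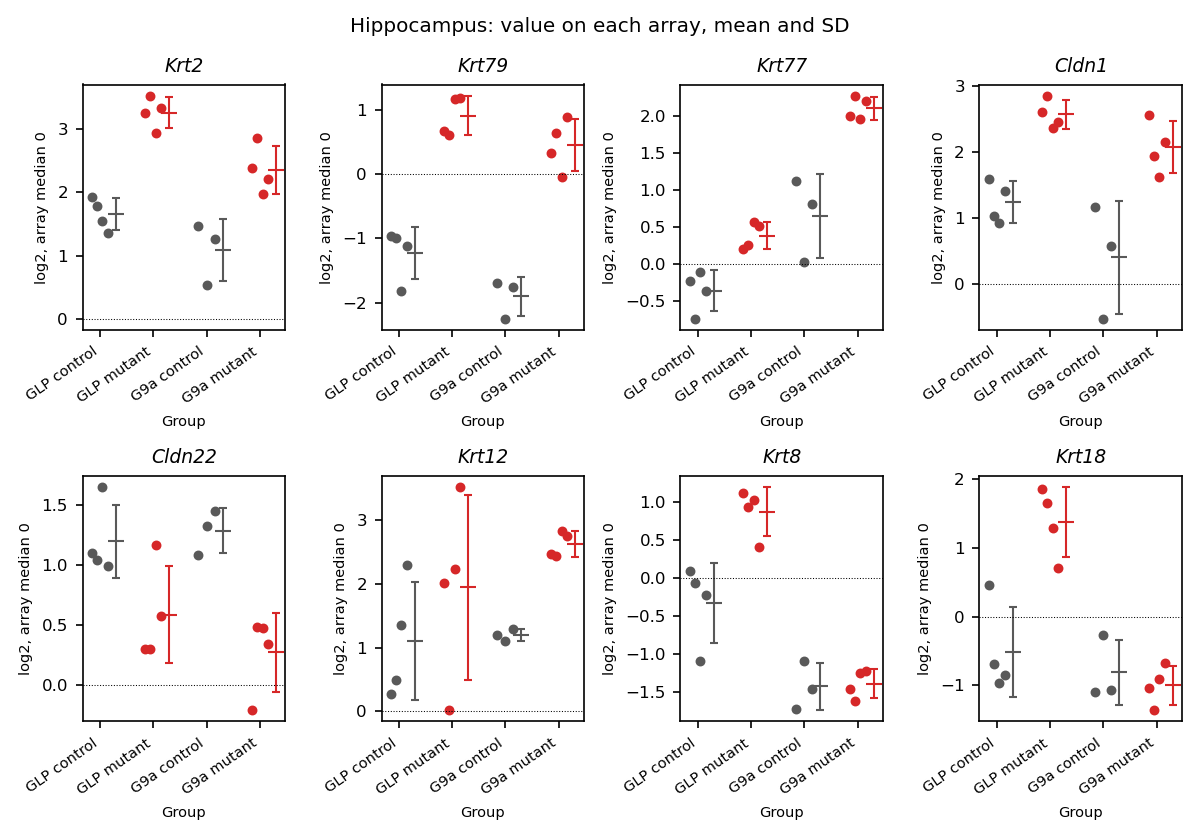
Each point is 1 hippocampus array (log2, dotted line at the array median), with the group mean and SD beside it, for 8 keratin and claudin genes in 4 GLP controls, 4 GLP mutants, 3 G9a controls and 4 G9a mutants. Krt2, Krt79, Krt77 and Cldn1 were higher in every mutant array than in every control array of the same line, and Krt8 and Krt18 were so in the GLP line while their G9a groups overlapped.

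The 2 lines each have control arrays of their own. In the hippocampus Krt2, Krt79, Cldn1 and Cldn22 were called in both, which is 66.7% of the 6 GLP calls and 80.0% of the 5 G9a calls. Over all genes, 103 were called in both in the same direction, 43.1% of the 239 GLP calls and 32.3% of the 319 G9a calls. The difference between the 2 effects was tested directly, and 1 of the 61 genes was called, where 0.157% of all tested genes were. This was Krt18, with an effect of 1.89 on loss of GLP and -0.19 on loss of G9a, a difference of 2.08 (SE 0.48, adjusted p = 0.0494). Its call was lost without any 1 of 11 of the 15 arrays, with adjusted p up to 0.236. Krt8 differed in the same direction without passing (1.16, adjusted p = 0.713), and the Krt77 effects of 0.74 and 1.45 were not told apart (adjusted p = 1.00). The probe set of Xist, a transcript of the inactive X chromosome of females, was above the median on 32 of 32 GLP arrays and on 11 of 27 G9a tissue arrays. The choroid plexus list also differed, with a mean of 0.15 to 1.98 in GLP hippocampus controls and 2.68 to 3.37 in mutants. In the G9a hippocampus that mean was -0.39 to -0.29 in controls and -0.21 to 0.34 in mutants. The part of Xist or of this list in differences between the lines, Krt18 among them, was not tested.

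In the striatum, Krt1 and Krt77 were called in both lines. In GLP they were the 2 called of 13 tested, where 1.67% of all tested genes were called (1.15% up), and in G9a the 2 called of 12 tested, against 3.02% (1.87% up). Over all genes, 117 were called in both striatum comparisons in the same direction, 60.6% of the GLP and 33.5% of the G9a calls. The median difference over the 61 genes was 0.05 in GLP, against 0.01 for all genes, and -0.05 in G9a, against -0.03. Krt77 read -1.18, -0.39, -0.53 and -0.59 in the GLP striatum controls and 0.73, 0.79, 1.12 and 1.34 in mutants. All mutants and no controls were above the median, as for 0.104% of all genes, and the difference was 1.67 (SE 0.26, adjusted p = 1.30e-05), at least 1.99-fold against the median. Krt77 passed the filter there only through its mutants. With no filter on low values it was also called (adjusted p = 1.52e-05 in limma). In the G9a striatum Krt77 read 0.86, 1.37, 0.87 and 0.88 in controls and 2.40, 2.36, 2.24 and 2.02 in mutants, a 2.39-fold rise (log2 1.26, SE 0.26, adjusted p = 0.00124).

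Krt1 read -0.93, -0.59, 0.22 and 0.13 in the GLP striatum controls and 0.65, 0.72, 0.56 and 0.51 in mutants. The mutants were close together and above all controls, with a difference of 0.90 (SE 0.22, adjusted p = 0.0159). That call was lost without control 1, control 2 or mutant 2. It was also lost with values below the median set to it and with the compared groups fitted alone (adjusted p up to 0.241 in limma). In the G9a striatum Krt1 read -0.12, 0.47, 0.16 and 0.68 in controls and 1.16, 1.27, 1.25 and 1.17 in mutants, a 1.88-fold rise (log2 0.91, SE 0.22, adjusted p = 0.00940), lost without control 1 (adjusted p = 0.0871). The effects of the 2 enzymes on Krt1 differed by -0.01 (SE 0.32) and those on Krt77 by 0.41 (SE 0.36), neither called. No member was called in that test over the striatum, where 1 had an unadjusted p under 0.05 and 0.00842% of all tested genes were called. Choroid plexus markers were uneven in the G9a striatum, with a list mean from -0.72 to 3.12 in controls and 0.80 to 2.61 in mutants, and 0 of 14 tested were called. Of 6 cortex markers tested in that comparison 2 were called up, Tbr1 (1.99, adjusted p = 0.0277) and Slc17a7 (2.09, adjusted p = 0.0470), with a list mean of 0.74 to 2.47 in controls and 2.01 to 2.52 in mutants. The part of either list in the values of Krt1, Krt77 and Krt12 there was not tested.

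**Figure D5:**
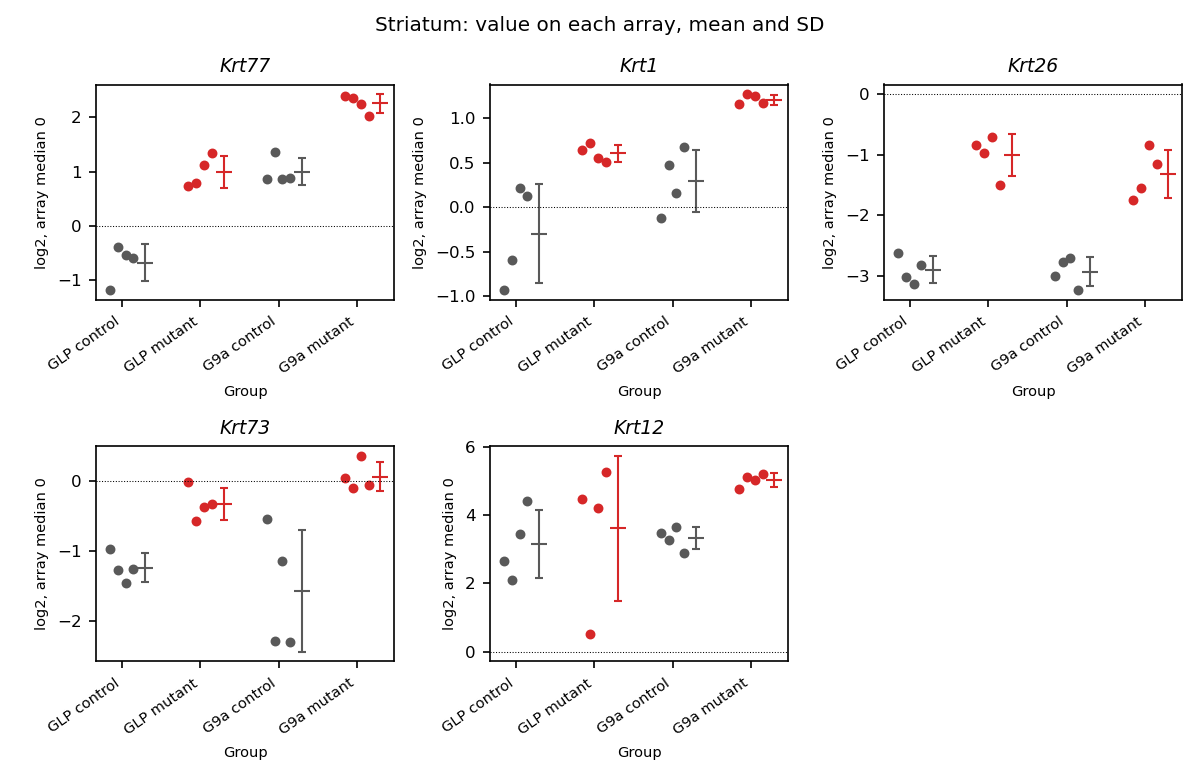
Each point is 1 striatum array (log2, dotted line at the array median), with the group mean and SD beside it, for 5 keratins in 4 groups of 4 arrays. Krt77, Krt1, Krt26 and Krt73 were higher in every mutant array than in every control array of the same line, and GLP mutant 2 stood low at 0.51 for Krt12.

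Krt26, Krt73 and Krt12 were higher in mutants by their means in all 10 comparisons without being called. They were picked out after their values were seen, and the share of all genes higher in all 10 was not counted. Per comparison, 36.9% to 59.2% of all genes had the higher mean in mutants. The 10 include Drd2-MSN, whose mutant label was not borne out. Krt26, a type I keratin of the hair root sheath, was below the median on every tissue array and so was not tested there. It read -2.62, -3.02, -3.13 and -2.83 in the GLP striatum controls and -0.83, -0.97, -0.71 and -1.50 in mutants, a difference of 1.90. In the G9a striatum Krt26 read -3.00, -2.78, -2.71 and -3.24 in controls and -1.74, -1.54, -0.84 and -1.15 in mutants, a difference of 1.61. Tested with no filter on low values, Krt26 passed in both (adjusted p = 1.31e-09 and 1.23e-07) and in the GLP hypothalamus (1.09, adjusted p = 7.08e-04). Its mutant and control arrays were apart in hypothalamus, striatum and cortex of both lines, and its largest hippocampus difference was 0.14. These are dim signals, at which log2 differences are least certain. In the polyribosome pools Krt26 lay higher, at 0.07 to 0.87 in the Drd1-MSN controls and 0.62 to 1.43 in the mutants, without a call (0.51, adjusted p = 0.943).

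Krt73 had its groups apart in 6 comparisons. In the G9a striatum it read -0.54, -2.28, -1.13 and -2.29 in controls and 0.04, -0.09, 0.37 and -0.05 in mutants, and its difference of 1.63 passed only with no filter (adjusted p = 1.35e-05). In the GLP striatum Krt73 differed by 0.91, in the GLP hypothalamus by 0.63 and in the GLP cortex by 0.34. In the G9a cortex, with 2 arrays a group, Krt73 read -0.42 and -0.15 in controls and 0.34 and 0.46 in mutants (0.69, adjusted p = 1.00). It was above the median on both mutants and neither control there, as were 0.544% of all genes. In Drd1-MSN it differed by 1.29, from -1.14, -1.05 and -0.73 to 0.23, 1.42 and -0.70. Over all genes, the share with every mutant array above every control array was 2.48% in the GLP striatum, 1.59% in the GLP hypothalamus, 4.5% in the GLP cortex, 2.65% in the G9a hypothalamus, 4.61% in the G9a striatum, 14.2% in the G9a cortex and 5.29% in Drd1-MSN.

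Krt12 varied within groups more than the others. In the G9a hippocampus it read 1.19, 1.11 and 1.29 in controls and 2.46, 2.45, 2.84 and 2.76 in mutants, a difference of 1.43 (SE 0.71, adjusted p = 0.415), where 5.69% of all genes had every mutant array above every control array. In the G9a striatum Krt12 read 3.49, 3.28, 3.66 and 2.90 in controls and 4.77, 5.11, 5.03 and 5.21 in mutants, a difference of 1.70 (SE 0.66, adjusted p = 0.191). With the compared groups fitted alone, both were called (adjusted p = 2.34e-04 and 1.86e-04), as was the G9a cortex (0.74, adjusted p = 0.00160). The second Krt12 probe set, tested among all probe sets, was called in the G9a hippocampus (2.47, adjusted p = 0.0111) and the G9a striatum (2.41, adjusted p = 0.00541). In the GLP line the Krt12 groups overlapped in every region, and mutant 2 was its lowest mutant array in each, at 0.01 in hippocampus, 0.51 in striatum, -0.90 in hypothalamus and 3.18 in cortex. In Drd2-MSN, Krt12 read 5.96, 4.84 and 4.53 in controls and 6.62, 6.25 and 6.08 in the pools labelled mutant. These did not overlap, as for 3.01% of all genes, and the difference of 1.21 was not called (adjusted p = 1.00).

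No member was called in the other 6 mutant comparisons. In the GLP hypothalamus 10 genes were tested, 2 had an unadjusted p under 0.05, and 1.01% of all tested genes were called. In the GLP cortex it was 12 tested and 1 with an unadjusted p under 0.05, against 1.54% of all tested genes called. In the G9a hypothalamus (9 tested, 2.34% of all tested genes called) and the G9a cortex (13 tested, 0.728%), 0 members had an unadjusted p under 0.05. Pituitary markers moved in the G9a hypothalamus, where Gh was called up by 5.02, and their part was not tested. In Drd1-MSN (17 tested, 0.0249%) and Drd2-MSN (16 tested, 0.0165%), 1 member each had an unadjusted p under 0.05.

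Krt80 in the GLP cortex read 0.28, 0.45, 0.76 and 0.82 in controls and 1.06, 1.04, 1.43 and 1.31 in mutants, with no overlap and a difference of 0.64 (SE 0.33, adjusted p = 0.757). Fitted alone, the GLP cortex groups gave Krt80 an adjusted p of 0.0303. Krt1 in the GLP hypothalamus differed by 0.77, from 1.29 to 2.46 in controls to 2.34 to 3.05 in mutants (adjusted p = 0.0837). It was called with values below the median set to it (adjusted p = 0.0242) and with the replicate block (adjusted p = 0.0433). In the G9a cortex, Krt5, a type II keratin of basal epithelial cells, read 0.25 and 0.23 in controls and -0.07 and -0.02 in mutants, without a call. With 2 arrays a group there, 29 of the 61 genes had both mutant arrays below both controls, where 36.6% of all genes did. The direct test of GLP against G9a called 0 members in the hypothalamus (1 with an unadjusted p under 0.05) and in the cortex (0), where 0.00831% and 0.0168% of all tested genes were called. The Drd1-MSN and Drd2-MSN effects differed for 0 members, 0 of them with an unadjusted p under 0.05, and for 0% of all tested genes.

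The type II keratins that rose sit together on mouse chromosome 15, in the RefSeq gene order of GRCm38.p6 as Krt73, Krt2, Krt1, Krt77, Krt76, Krt4, Krt79, Krt78, Krt8 and Krt18. The rises were not shared by all neighbours. Beside Krt79, the hippocampus differences of Krt4 were 0.02 in GLP and -0.15 in G9a, and those of Krt78 were -0.07 and -0.47, all too dim to be tested. Krt76, next to Krt77, differed by -0.05 in the GLP striatum and -0.16 in the G9a striatum. Krt1, between Krt2 and Krt77, was not called in the hippocampus (0.54 and 0.45). Eif4b, a translation factor gene beyond Krt18, differed by -0.03 in the GLP hippocampus, and Wwc2, beside Cldn22, by 0.21 in GLP and -0.18 in G9a, none called.

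Promoters of 44 of the 61 genes are in the RefSeq table of GRCm38.p6, and the 250 bases before the start were searched on both strands. The letters searched were TATAAA (the TATA box), CAGGTG (the E-box bound by Snail and ZEB repressors of epithelial genes) and AACCNGTT (the grainyhead motif of epithelial activators). TATAAA was in 15 of the 44 (34.1%, against 13.0% of the 27025 genes in the table), CAGGTG in 13 (29.5%, against 17.1%) and AACCNGTT in 1 (2.27%, against 1.71%). Of the 8 called genes 7 have an entry: none holds TATAAA and 4 hold CAGGTG. A match of letters is no evidence of binding. The sequences below are those of Krt2, Krt77 and Krt79, which rose in both lines in hippocampus or striatum, and of Krt12 and Krt26, higher by their means in all 10 comparisons, 5' to 3' on the gene's strand, with matches to the 3 motifs in capitals.
Krt2, chr15:101818170-101818419, minus strand: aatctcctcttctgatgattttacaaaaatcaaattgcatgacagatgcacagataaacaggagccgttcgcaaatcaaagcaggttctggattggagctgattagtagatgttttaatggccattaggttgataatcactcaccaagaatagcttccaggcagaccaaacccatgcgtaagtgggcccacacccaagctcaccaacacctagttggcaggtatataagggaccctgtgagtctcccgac
Krt77, chr15:101869706-101869955, minus strand: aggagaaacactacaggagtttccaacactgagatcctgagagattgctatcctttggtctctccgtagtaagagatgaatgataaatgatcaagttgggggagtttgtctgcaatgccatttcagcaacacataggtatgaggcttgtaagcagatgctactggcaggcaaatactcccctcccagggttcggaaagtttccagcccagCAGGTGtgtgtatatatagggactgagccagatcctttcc
Krt79, chr15:101940325-101940574, minus strand: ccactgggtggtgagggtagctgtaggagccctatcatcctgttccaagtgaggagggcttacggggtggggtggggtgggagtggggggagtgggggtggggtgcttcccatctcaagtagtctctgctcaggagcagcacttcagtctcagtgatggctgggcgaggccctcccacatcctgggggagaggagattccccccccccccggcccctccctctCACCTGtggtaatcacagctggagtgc
Krt12, chr11:99422260-99422509, minus strand: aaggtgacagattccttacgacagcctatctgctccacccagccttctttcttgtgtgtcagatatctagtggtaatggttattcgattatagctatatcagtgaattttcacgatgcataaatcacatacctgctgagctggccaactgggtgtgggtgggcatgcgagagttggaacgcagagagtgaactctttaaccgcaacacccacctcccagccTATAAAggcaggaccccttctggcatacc
Krt26, chr11:99337966-99338215, minus strand: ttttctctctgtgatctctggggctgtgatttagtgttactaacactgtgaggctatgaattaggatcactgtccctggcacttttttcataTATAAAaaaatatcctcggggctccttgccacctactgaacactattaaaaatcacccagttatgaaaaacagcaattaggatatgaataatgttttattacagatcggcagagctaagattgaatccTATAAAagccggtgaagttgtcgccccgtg
Krt12 and Krt26 hold TATAAA close to the start, Krt77 and Krt79 hold CAGGTG there, and none of the 3 motifs is in the Krt2 window.

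Other epithelial genes were read from lists, whose counts stand beside 2.05% of all tested genes called in the GLP hippocampus, 2.72% in the G9a hippocampus, 1.67% in the GLP striatum and 3.02% in the G9a striatum. Of 25 measured partners of the tight junction, 20 were tested in the GLP hippocampus and 1 was called, Cgnl1 (paracingulin, at 0.97), with a median of 0.14 for the list against -0.02 for all tested genes. In the G9a hippocampus 1 of 21 was called, the scaffold gene Patj (1.78), and in the G9a striatum 1 of 21, Marveld3, fell by 1.36. Of 27 measured desmosome and cornified envelope genes, 10 were tested in each striatum comparison and Lor (loricrin, of the cornified envelope) was the one called, by 0.78 in GLP and 0.77 in G9a. In the G9a hippocampus 1 of 9 was called, the desmosomal cadherin Dsg2 (0.96).

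Of 25 measured genes of epithelial adhesion and regulation, 6 were tested in each of 3 comparisons and 1 was called in each. These were the protease inhibitor gene Spint2 in the GLP hippocampus (0.73), the basal epithelial regulator Trp63 in the G9a hippocampus (0.91) and the grainyhead-like factor Grhl1 in the G9a striatum (1.22). The epithelial cadherin Cdh1 and the splicing regulators Esrp1 and Esrp2 were below the median on every array of these 3 comparisons. Of 16 measured intermediate filament genes outside the keratins, 12 were tested in the G9a hippocampus and the G9a striatum, and the nuclear lamin gene Lmnb2 was the one called in each, by 0.53 and 0.50.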

How the data were processed

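Per the submitters' processing notes, the deposited values were made with GCRMA; no version was among the sources used here. The authors deposited 1 linear intensity per probe set and array, with every array at a median of 1. Log2 of each intensity was taken with no pseudocount. Of 45101 probe sets, 64 controls were left out and 34945 had exactly 1 symbol in the platform annotation. Symbols of all 61 genes matched the RefSeq table.

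In R 4.3.3, limma 3.58.1 with an intensity trend gave group means, separately for 16 tissue groups and 4 polyribosome groups. Genes entered a test if log2 exceeded 0 on a number of compared arrays no lower than the smaller group's size, with Benjamini-Hochberg adjustment at 0.05. Alternatives changed the filter, floor, normalization, fitted groups, probe sets, replicate block and arrays. The fit was tested on simulated data. Deviations of same-numbered arrays correlated at 0.16 to 0.48 in Drd2-MSN and at -0.01 to 0.64 in the G9a hypothalamus. The range was 0.07 to 0.29 in the GLP hippocampus, 0.06 to 0.25 in the GLP cortex and -0.04 to 0.25 in the G9a striatum. The labels do not state that these numbers mark pairs. The main fit was thus unpaired, with a replicate block as an alternative. The p-values measure the spread between these arrays, pooled per gene over the groups of a fit. The sources used here do not say whether regions share mice. The number of arrays limits precision.

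Named were called members, members of highest control mean, the largest called region differences, members crossing the median, deleted genes, left-out claudins, called genes of the lists and neighbours of called members; Krt26, Krt12, Krt80 and the other uncalled members were named after their values were seen. Members and lists were chosen with earlier results of these data known.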

Additional observations from a re-analysis of the deposited data

Results flagged for a closer look

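In the GLP hippocampus controls, Cldn22 stood at 1.65 on array 3, with the other 3 arrays between 0.99 and 1.10. Without that array the call of Cldn22 in the GLP hippocampus was lost (-0.46, adjusted p = 0.236). In the G9a striatum controls, Krt77 stood at 1.37 on array 2, with the other 3 arrays between 0.86 and 0.88, and its call held without that array. These were 2 of 25 pairs of a gene and a group checked for an array apart, and chance gives about 1 in 20. The mutant minus control difference of Krt18 in the hippocampus was larger in the GLP than in the G9a line, by 2.08 on the log2 scale (adjusted p = 0.0494 in limma). That call was lost without any 1 of 11 of the 15 arrays. The part of choroid plexus RNA in it was not tested.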

How the results depend on the processing

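No called gene changed direction under the alternatives run. Uncalled values near 0 did when 1 array was left out: Ehmt2 in Drd2-MSN ran from -0.53 to 0.35 and in the GLP hypothalamus from -0.06 to 0.08, and Ehmt1 in Drd2-MSN from -0.05 to 0.23. For the GLP hippocampus (6 calls), a filter at 2 times the array median gave 3. For the GLP hypothalamus (0), a floor at the median, no filter and the replicate block each gave 1 (Krt1 with the floor and the block, Krt26 with no filter). For the GLP striatum (2), the floor gave 1, the stricter filter 0 and the compared groups alone 1. For the GLP cortex (0), the floor and the groups alone each gave 1, as did the groups alone for the G9a cortex (0). With no filter the G9a hypothalamus gave 2 and the G9a striatum 4. The hippocampus test of GLP against G9a (1) gave 3 with the floor and 0 with the stricter filter or the groups alone. Among controls, no filter gave 22, 32, 40 and 44 calls for hippocampus, hypothalamus, striatum and cortex, and 27 for Drd1-MSN against Drd2-MSN. The stricter filter gave 4 for the hippocampus and 0 for the cell types, for which the groups alone and every probe set each gave 5. In the GLP hippocampus the groups alone gained Krt77 and lost Cldn22. The filters changed how many genes were tested; for the other settings the cause was not tested.

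Leaving out 1 array gave 4 to 6 calls in the GLP hippocampus, 4 to 8 in the G9a hippocampus, 1 to 2 in each striatum, 0 to 1 in the GLP hypothalamus, 0 to 2 in the G9a hypothalamus and 0 to 1 in the hippocampus test of GLP against G9a. It gave 8 to 12, 7 to 13, 8 to 12 and 9 to 11 in the control hippocampus, hypothalamus, striatum and cortex, 3 to 5 between the control cell types, and 0 in the others. A replicate block, with arrays paired by number, gave 5 calls in the GLP hippocampus, where Krt8 was lost (adjusted p = 0.0931), 5 in the G9a hippocampus and 2 in each striatum. Across control regions it gave 11, 10, 9 and 9, a block added after seeing the data. Genes above the median on every array of a group numbered 23, and 16 at 2 times the median. Dim signal limits Krt26, Krt73 and Krt79 most.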
